A study of Mus musculus with 6 samples.

Results

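The 10 genes described here encode laminin chains (Lama2, Lama4, Lama5, Lamb1, Lamb2 and Lamc1) and the proteins that tie laminin to the rest of the basement membrane (Nid1, Nid2, Hspg2 and Agrn). They were chosen by gene symbol, and all 10 were among the 17152 genes tested in freshly isolated mouse satellite cells, which are the muscle stem cells. RNA-sequencing was carried out on 3 Pax7WT and 3 Pax7KR libraries. The question was whether transcripts of these genes differ in level when a lysine of the transcription factor PAX7 that can be acetylated is replaced by arginine (K193R). At the level of single genes, none of the 10 passed the test, and the closest was Nid1, which encodes nidogen-1.

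All mice were C57BL/6J, and by the methods they were young adults. The Pax7KR allele was made with CRISPR/Cas9 in zygotes, the Pax7KR animals were homozygous F2 mice bred from F1 heterozygotes, and the Pax7WT controls were their littermates. No injury or agent was given to either genotype. Cells were sorted from hindlimb muscle dissociated with collagenase and dispase, as α7-INTEGRIN+ and CD34+ cells that lacked CD31, CD11b, SCA-1 and CD45. The RNA of each sample, 15 ng, went into a directional library. The allele is present in every cell of these mice from the zygote on. By the methods the libraries came from separate biological samples, and the labels do not say how many animals went into each.

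A laminin is a trimer of an α, a β and a γ chain that polymerizes into a sheet on the cell surface. Nidogens connect this sheet to the network of collagen IV, and the heparan sulfate proteoglycans perlecan and agrin bridge both networks and the cell. The satellite cell lies between the basement membrane and its myofiber and binds laminin through α7β1 integrin and dystroglycan. The laminin of the adult myofiber basement membrane holds mainly the α2 chain encoded by Lama2, whose loss causes congenital muscular dystrophy.

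The libraries held 17822367 to 27908054 reads. In edgeR's quasi-likelihood test, 0 of 17152 genes passed an adjusted p cut-off of 0.1 (percent called 0%), 803 genes (4.68%) had an unadjusted p under 0.05, and DESeq2 called 30 genes (0.175%), or 45 (0.262%) with an offset for transcript length. Pax7 itself was at 1551 ± 101 CPM (SD, n = 3) in Pax7WT and 1502 ± 119 CPM in Pax7KR, where CPM is the read count scaled to a fixed library total after TMM normalization. A level of the whole transcript does not check a single changed codon, and no sequence was read here. The 9 satellite cell markers summed to 7381 to 8003 CPM in Pax7WT and 7749 to 8014 CPM in Pax7KR. Reads were also assigned to genes listed as markers of other cell types. Whether these reads came from other cells or from the satellite cells themselves was not tested. The 12 endothelial markers summed to 358 to 447 CPM in Pax7WT and 390 to 516 CPM in Pax7KR, with 11 of 12 higher in Pax7KR, and the 8 smooth muscle and pericyte markers to 2468 to 2824 and 2312 to 2526 CPM, with 0 of 8 higher. Single genes made up much of these sums, with Tek at 184 to 231 CPM in the former and Notch3 at 2052 to 2475 CPM in the latter. The sums of all these lists and of the remaining ones overlapped between genotypes. The fibro-adipogenic genes summed to 1931 to 2080 CPM over both genotypes. Of this, Col3a1 took 1258 to 1411 CPM and Dpt 571 to 633 CPM. Dcn was at 24.7 to 45.3 CPM and Ly6a at 5.53 to 9.4 CPM. Pdgfra, Lum, Pi16 and Clec3b were each under 4 CPM. Other sums were 60.3 to 104 CPM for Schwann cell genes and 32.5 to 64.9 CPM for tenocyte genes. Myofiber genes summed to 35.3 to 50.2 CPM and immune genes to 7.72 to 12.5 CPM. Pax7KR replicate 2 stood apart, with the highest endothelial sum (516 CPM) and a summed level of 4 Y-linked genes of 131 CPM against 299 to 355 CPM elsewhere, and values without it are given below for those of the 10 genes whose log2 fold change moved by 0.05 or more. In bulk RNA, fewer cells of a type and less RNA per cell cannot be told apart.

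Counted over the 10 genes, 7 were higher and 3 lower in Pax7KR, with a median log2 fold change of 0.03 and a median absolute log2 fold change of 0.09. Over all genes tested, 49% were higher and the median absolute log2 fold change was 0.11. A log2 fold change is Pax7KR over Pax7WT throughout. The 10 genes gave 0 calls at the adjusted cut-off, and 1 of 10 (Nid1) had an unadjusted p under 0.05, beside 4.68% of all genes in either direction and 2.26% higher in Pax7KR. That same gene was the 1 of 10 whose CPM did not overlap between the genotypes, beside 10.3% of all genes, 5.14% being higher and 5.19% lower in all Pax7KR libraries. On TPM, the deposited transcript abundance scaled to a fixed total and corrected for length, 3 of 10 genes (Lamb2, Nid1 and Nid2) were higher in all Pax7KR libraries and 0 were lower in all, beside 12.5% of all genes apart on that scale and 9.69% apart and higher. Genes apart on TPM were thus mostly higher in Pax7KR, while those apart on CPM were split almost evenly.

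**Figure D1:**
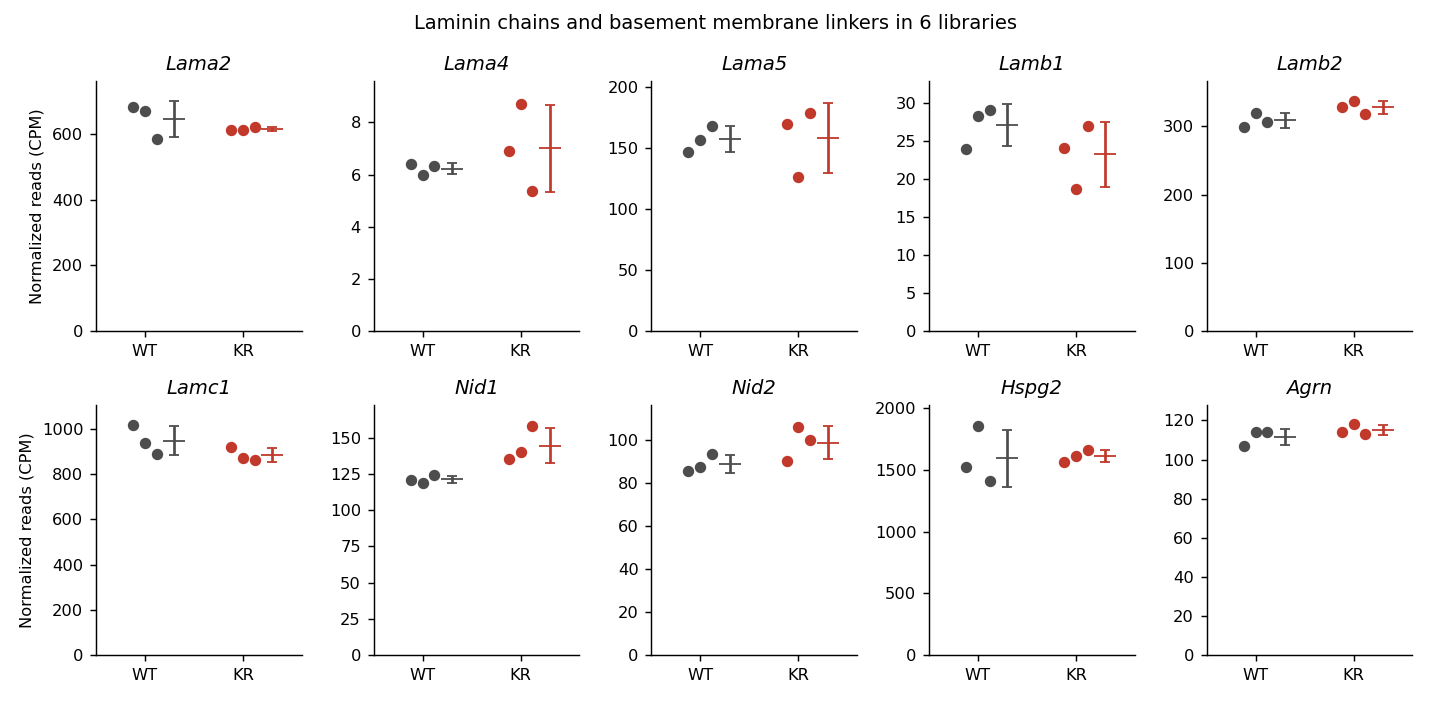
CPM (TMM-scaled reads, axes from 0) of each gene in the 3 Pax7WT (grey) and 3 Pax7KR (red) libraries, points in the order of replicates 1 to 3, with the mean ± SD beside them. The points of the genotypes overlap for every gene but Nid1, at 119 to 124 CPM in Pax7WT and 135 to 158 CPM in Pax7KR.

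The promoters printed here, from RefSeq on GRCm38.p6, run from 250 bases before to 50 after an annotated start and are in the direction of transcription. Capitals mark TAAT or ATTA, the core letters that homeodomains such as that of PAX7 bind, searched as TAAT and as ATTA, its reverse complement. Nid1 is shown because it had the smallest p of the 10 genes, Lama2 because it is the main α chain of muscle, and both starts of Agrn because reads were assigned to transcripts from each.

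Nid1, chr13:13437352-13437651, plus strand: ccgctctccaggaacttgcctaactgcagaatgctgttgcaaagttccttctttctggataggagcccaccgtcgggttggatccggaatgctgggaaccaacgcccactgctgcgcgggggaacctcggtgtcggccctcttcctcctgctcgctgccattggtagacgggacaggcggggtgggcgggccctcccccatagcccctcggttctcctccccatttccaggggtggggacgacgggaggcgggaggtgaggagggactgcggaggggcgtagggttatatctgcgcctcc
Lama2, chr10:27616893-27617192, minus strand: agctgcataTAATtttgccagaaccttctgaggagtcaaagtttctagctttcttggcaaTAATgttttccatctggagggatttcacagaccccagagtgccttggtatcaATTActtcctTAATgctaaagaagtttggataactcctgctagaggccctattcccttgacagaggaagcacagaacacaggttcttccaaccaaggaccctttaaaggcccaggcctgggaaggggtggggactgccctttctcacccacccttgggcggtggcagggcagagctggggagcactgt
Agrn upstream start, chr4:156197439-156197738, minus strand: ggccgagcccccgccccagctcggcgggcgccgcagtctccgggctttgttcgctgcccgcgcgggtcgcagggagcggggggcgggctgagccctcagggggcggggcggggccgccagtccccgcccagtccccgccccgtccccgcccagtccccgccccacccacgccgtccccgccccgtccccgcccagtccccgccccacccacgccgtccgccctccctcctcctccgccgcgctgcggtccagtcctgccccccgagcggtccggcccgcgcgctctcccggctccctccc
Agrn downstream start, chr4:156186210-156186509, minus strand: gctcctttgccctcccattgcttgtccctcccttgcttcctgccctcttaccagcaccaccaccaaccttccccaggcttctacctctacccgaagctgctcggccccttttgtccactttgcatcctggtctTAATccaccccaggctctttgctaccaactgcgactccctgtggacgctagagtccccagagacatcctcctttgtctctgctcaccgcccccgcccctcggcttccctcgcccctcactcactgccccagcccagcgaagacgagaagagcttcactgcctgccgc

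The table held 8 promoters for 7 of the 10 genes. Lama4, Lamc1 and Nid2 were not among them. TAAT or ATTA occurred in 4 of the 8 windows and in 58% of all 32851 promoters of this length. The Lama2 window held 4 matches, the Lamb2 window 2, and the Lamb1 and the downstream Agrn windows 1 each, while those of Nid1, Hspg2, Lama5 and the upstream Agrn start held 0. None of the 8 held the palindromes TAATNNATTA or TAATNNNATTA, which 0.39% and 0.487% of all promoters hold. GC content was 83.3% in the upstream Agrn window, 64.7% in that of Nid1 and 50.3% in that of Lama2, with a median of 52.7% over all promoters. A match is a description of these letters, and binding was not measured in these data.

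Levels were compared between genes on summed TPM, which is per length and includes short transcripts on few reads. The order below is thus not one of full-length transcripts alone. Lamc1-201 was at a mean of 200 TPM and Lamb2-201 at 95.2 TPM. The coding Hspg2-201 and Hspg2-203 were at 103 and 94.1 TPM, and Lama2-201 at 89.7 TPM. Lamc1, the γ1 chain shared by most laminins, was highest, with a TPM of 238 ± 26.1 (SD, n = 6 libraries), followed by Hspg2 (206 ± 14.0), and the libraries of these neighbours overlapped. Lama2 (143 ± 6.51 TPM) and Lamb2 (137 ± 8.94 TPM) came next and also overlapped. Nid2 (39.6 ± 5.04 TPM), Nid1 (37.2 ± 4.47 TPM) and Agrn (33.2 ± 2.38 TPM) formed an overlapping group, and Lama5 was at 25.0 ± 2.29 TPM. The lowest were Lamb1, at 7.83 ± 1.07 TPM, and Lama4, at 2.33 ± 0.905 TPM, which did not overlap with each other.

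**Figure D2:**
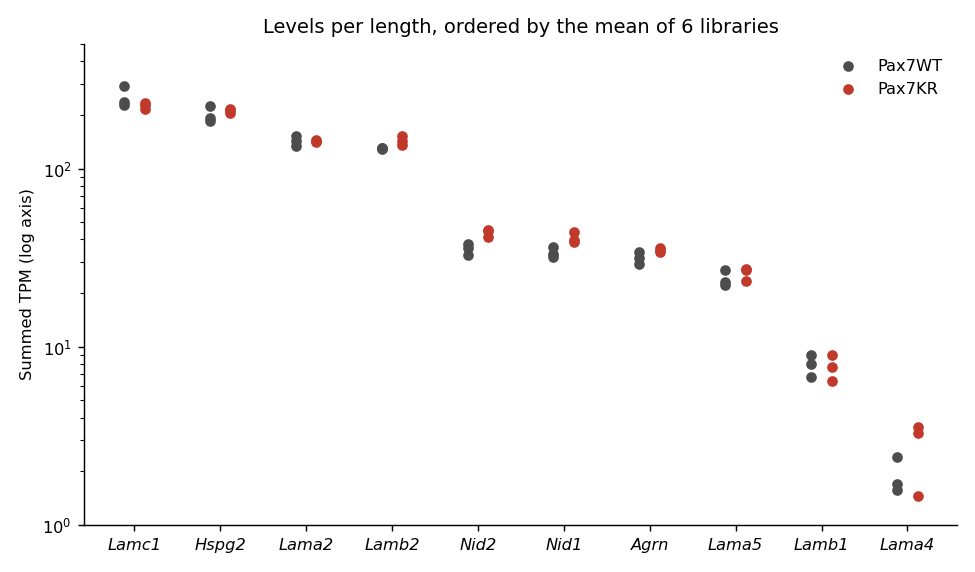
Summed TPM per library (log axis) of the 10 genes, ordered by their mean over 6 libraries, with Pax7WT in grey and Pax7KR in red. Lamc1, Hspg2, Lama2 and Lamb2 lie between 129 and 289 TPM, Nid2, Nid1, Agrn and Lama5 between 22.3 and 45.1 TPM, and Lamb1 and Lama4 under 10 TPM.

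The α chains carry the domains that bind cell surface receptors. Lama2 (10:26980036-27619758, minus strand) encodes the α2 chain. It was at 682, 669 and 583 CPM in Pax7WT and at 612, 612 and 622 CPM in Pax7KR. The Pax7WT libraries lay on both sides of the Pax7KR libraries, which were close together. edgeR gave a log2 fold change of -0.07 (SE 0.07), with an adjusted p of 0.998. Of the TPM of this gene, 59.9% to 65.9% was held by the full-length transcript Lama2-201, and the coding transcript Lama2-208, of 3383 bases and with a start inside the gene, was at 32.8, 32.4 and 34.8 TPM in Pax7WT and at 32.0, 30.6 and 32.3 TPM in Pax7KR. Lama2-201 overlapped between the genotypes, and Lama2-208 was lower in every Pax7KR library by a margin that is small beside the spread within each genotype, and was not tested on its own.

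Lama4 (10:38965515-39110188, plus strand) encodes α4, a chain lacking the N-terminal arm and found mainly around blood vessels and nerves. It was at 6.39, 5.98 and 6.33 CPM in Pax7WT and at 6.91, 8.71 and 5.39 CPM in Pax7KR, from 106 to 208 reads per library. Pax7KR held both the highest and the lowest value. The log2 fold change of 0.17 (SE 0.20, adjusted p = 0.998, edgeR) was -0.02 without Pax7KR replicate 2 and 0.48 with a correction for transcript length. The highest value was in the library with the highest endothelial sum (516 CPM), whose part in the Lama4 level was not tested. Lama4-201 held 55.1% to 68.9% of the TPM of the gene in 3 libraries and 100% in the others. By reads it held 93.5% to 100%, and its own TPM was 1.46 to 2.37. Most of the remaining TPM in the 3 libraries was in Lama4-207, a retained-intron transcript of 511 bases, on 3.2 to 6.0 reads. The part of these few reads in the length-corrected value was not tested.

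Lama5 (2:180176373-180225859, minus strand) encodes α5, the long α chain of embryonic and many adult basement membranes. The values were 147, 157 and 168 CPM in Pax7WT and 170, 126 and 179 CPM in Pax7KR. Pax7KR replicate 2 was the lowest library and the other Pax7KR libraries the highest. In edgeR it had a log2 fold change of 0.01 (SE 0.13) and an adjusted p of 0.998, with a range of -0.08 to 0.15 as each library was left out, the upper end being without Pax7KR replicate 2.

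Among these α chains, Lama2 held 84.6% ± 2.36 of the summed TPM in Pax7WT and 83.3% ± 0.927 in Pax7KR (SD, n = 3, exact two-sided permutation test p = 0.5). Lama5 held 14.3% ± 2.07 and 15.1% ± 1.12 (exact permutation p = 0.6), and Lama4 1.12% ± 0.298 and 1.62% ± 0.678 (exact permutation p = 0.4). With 3 libraries against 3 the test cannot go below 0.1, and all adjusted p over the 15 shares tested were 1. A further α chain gene, Lama3, was at a mean of 63.6 TPM over the 6 libraries, above Lama5. Lama1 had 0 to 2 reads per library and was not tested.

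Lamb1 (12:31265234-31329644, plus strand) encodes β1, the common partner in embryonic laminins. It was at 23.9, 28.3 and 29.0 CPM in Pax7WT and at 24.1, 18.6 and 26.9 CPM in Pax7KR. The ranges overlapped, with Pax7KR replicate 2 lowest. Pax7KR was lower by the means, with a log2 fold change of -0.22 (SE 0.13, edgeR adjusted p = 0.992) and one of -0.09 without Pax7KR replicate 2. These values rest on where reads were assigned. In Pax7WT replicate 3, the transcript Lamb1-201 was at 0 and the 5778-base transcript ENSMUST00000239496, at 0 in the other 5 libraries, held 590.7 reads. This transcript is not in the annotation release used for gene names and was added to Lamb1 because its reads fill that gene's mean in the deposited table. Without it, the log2 fold change was 0.41 (edgeR, adjusted p = 0.998).

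Lamb2 (9:108479736-108490530, plus strand) encodes β2, the chain concentrated at the neuromuscular junction. It was at 299, 320 and 307 CPM in Pax7WT and at 328, 337 and 318 CPM in Pax7KR. Only the highest Pax7WT and the lowest Pax7KR libraries overlapped. This gave a log2 fold change of 0.09 (SE 0.06, edgeR adjusted p = 0.992). On TPM, where most genes that were apart were higher in Pax7KR, the genotypes did not overlap, at 129, 131 and 131 against 143, 152 and 136. Lamb2 held 94.3% ± 0.707 of the TPM of the β1 and β2 genes in Pax7WT and 94.9% ± 0.961 in Pax7KR (SD, n = 3, exact permutation p = 0.5).

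Lamc1 (1:153218922-153332786, minus strand) encodes γ1, the chain that carries the nidogen binding site. It was at 1017, 938 and 890 CPM in Pax7WT and at 919, 870 and 862 CPM in Pax7KR. Pax7WT replicate 1 was highest, and the other libraries overlapped. The log2 fold change in edgeR was -0.10 with an SE of 0.07 and an adjusted p of 0.992, and it was -0.22 with a correction for transcript length (edgeR, unadjusted p = 0.0333, adjusted p = 0.961). A short transcript also varied between libraries, and its part in the corrected value was not tested. Lamc1-205, of 762 bases and annotated to nonsense-mediated decay, was at 60.0, 24.9 and 18.1 TPM in Pax7WT and at 5.63, 16.4 and 11.8 TPM in Pax7KR. These did not overlap, by a small margin. The nearest libraries, Pax7WT replicate 3 and Pax7KR replicate 2, held 139.3 and 140.3 reads, and Pax7WT replicate 1 held 619.1. This transcript was singled out after the values were seen and was not tested. The share of all transcripts apart in this way was not computed. The full-length Lamc1-201 held 74.7% to 93.1% of the TPM of the gene, with overlapping genotypes (exact permutation p = 0.3, n = 3), and a mean difference of 7.27 percentage points. As a share of reads it was 97.5%, 98.7% and 98.8% in Pax7WT and 99.6%, 98.9% and 99.1% in Pax7KR, which did not overlap. The difference was 0.856 points (exact permutation p = 0.1, the lowest that 3 against 3 allows). It was the 1 of 10 such read shares, 1 for each gene, that did not overlap, beside 10.3% of all genes apart on CPM.

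**Figure D3:**
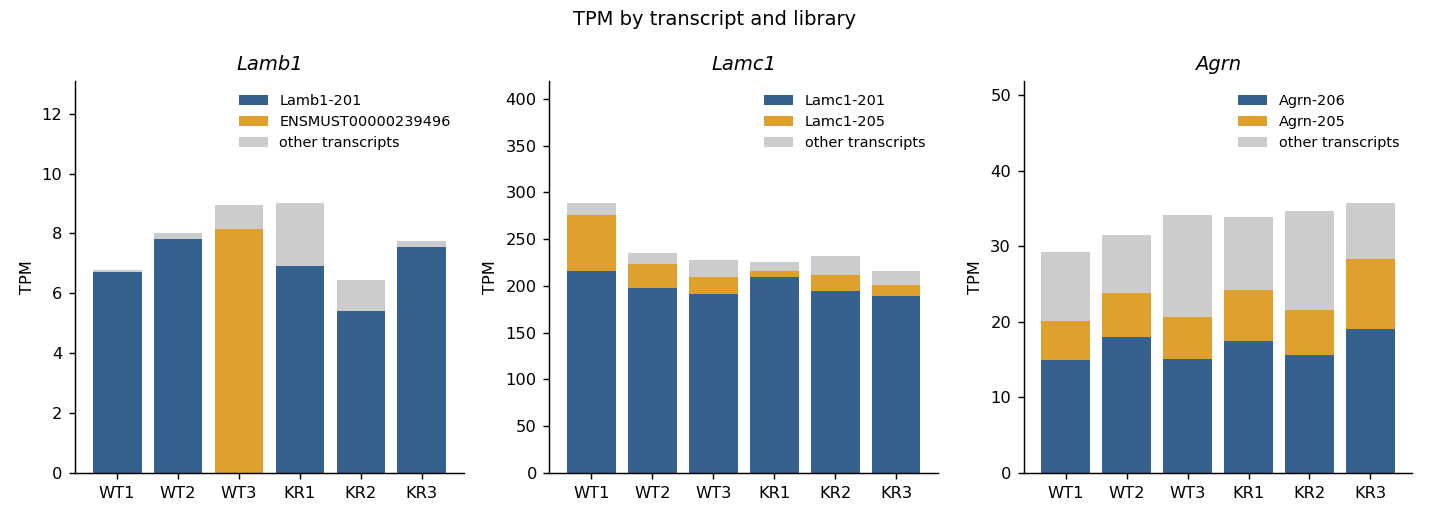
Stacked bars of the TPM assigned to the 2 transcripts with the highest mean and to all others of Lamb1, Lamc1 and Agrn in each of the 6 libraries (WT1 to WT3 and KR1 to KR3, axes from 0). In Pax7WT replicate 3 the Lamb1 signal sits in ENSMUST00000239496 in place of Lamb1-201, and in Pax7WT replicate 1 the short Lamc1-205 is at 60.0 TPM.

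Nid1 (13:13437551-13512269, plus strand) encodes nidogen-1, which binds the γ1 chain and collagen IV. It was at 121, 119 and 124 CPM in Pax7WT and at 135, 140 and 158 CPM in Pax7KR. Every Pax7KR library lay above every Pax7WT library. The means were 121 ± 2.61 and 144 ± 12.1 CPM (SD, n = 3), a fold of 1.19 and a log2 fold change of 0.25 (SE 0.07, edgeR unadjusted p = 0.00274, adjusted p = 0.959). The difference therefore did not pass the cut-off over all genes. DESeq2 gave an adjusted p of 0.52. With no filter on low reads, edgeR gave an adjusted p of 0.0682, under the cut-off, as 1 of 158 genes called. The log2 fold change was 0.18 to 0.29 as each library was left out, and 0.27 without Pax7KR replicate 2. In each library, 91.0% to 99.4% of the TPM was held by Nid1-201.

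Nid2 (14:19751265-19811787, plus strand) encodes nidogen-2, the close relative with the same partners. It was at 85.5, 87.4 and 93.7 CPM in Pax7WT and at 90.4, 106 and 100 CPM in Pax7KR. Pax7KR replicate 1 fell within the Pax7WT range and the other Pax7KR libraries lay above it. The log2 fold change was 0.15 (SE 0.07, edgeR unadjusted p = 0.0523, adjusted p = 0.992), 0.10 without Pax7KR replicate 2 and 0.25 with a correction for transcript length (unadjusted p = 0.0143, edgeR adjusted p = 0.961). On TPM the genotypes did not overlap, at 35.6, 37.8 and 32.6 against 41.5, 45.1 and 44.6. Part of this TPM was in retained-intron transcripts. Nid2-202, of 543 bases, was at 0 TPM in Pax7WT replicate 3 and 6.12 to 9.78 TPM elsewhere. Nid2-204, of 3976 bases, was at 1.70 TPM in Pax7KR replicate 1 and at 0 TPM elsewhere. The part of each in the separation was not tested. The full-length Nid2-201 overlapped, at 29.3, 29.2 and 32.6 TPM in Pax7WT and 31.2, 37.7 and 34.9 TPM in Pax7KR.

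The summed TPM of the nidogens was 68.7, 69.6 and 69.0 in Pax7WT and 80.2, 84.8 and 88.5 in Pax7KR. This sum was formed after the values were seen and was not tested. On TPM, most genes that were apart were higher in Pax7KR. The summed β chains were also apart, at 136, 139 and 140 TPM in Pax7WT and 152, 159 and 143 TPM in Pax7KR. The summed α chains and Lamc1 overlapped. Nid2 held 51.2% ± 3.58 of the summed nidogen TPM in Pax7WT and 51.8% ± 1.37 in Pax7KR (SD, n = 3, exact permutation p = 0.9). On summed TPM the nidogens were thus close to evenly matched in both genotypes. By the full-length transcripts, Nid1-201 (mean 36.2 TPM) lay above Nid2-201 (mean 32.5 TPM) in every library.

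**Figure D4:**
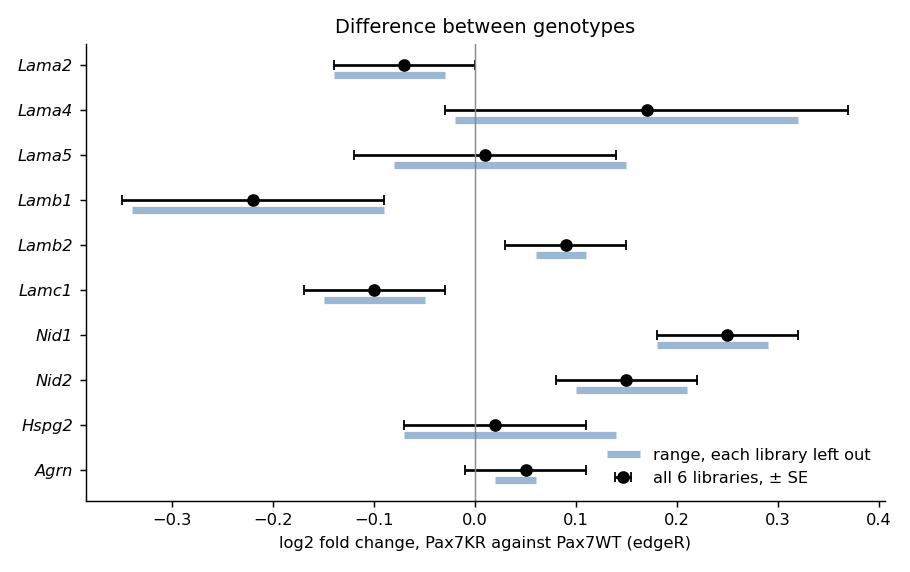
Log2 fold change of Pax7KR against Pax7WT for the 10 genes, with black points ± SE from edgeR on all 6 libraries and blue bars for the range as each library was left out. Nid1 is highest, at 0.25 with a range of 0.18 to 0.29, and the bars of Lama4, Lama5 and Hspg2 cross 0.

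Hspg2 (4:137468769-137570630, plus strand) encodes perlecan, which carries heparan sulfate and binds nidogen, laminin and dystroglycan. It was at 1523, 1855 and 1410 CPM in Pax7WT and at 1562, 1615 and 1663 CPM in Pax7KR. The Pax7WT libraries held both the highest and the lowest value. Between the means there was a log2 fold change of 0.02 (SE 0.09, edgeR adjusted p = 0.998). The coding transcripts Hspg2-201, at 90.7 to 115 TPM, and Hspg2-203, at 79.1 to 107 TPM, differ little in length (14187 and 14176 bases), so their split is less certain than the level of the gene.

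Agrn (4:156165290-156197488, minus strand) encodes agrin, known for clustering acetylcholine receptors through LRP4 and MUSK and for binding laminin and dystroglycan. It was at 107, 114 and 114 CPM in Pax7WT and at 114, 118 and 113 CPM in Pax7KR. All but Pax7WT replicate 1 lay between 113 and 118 CPM. This amounted to a log2 fold change of 0.05 (SE 0.06, edgeR adjusted p = 0.998). The gene has coding transcripts from starts 11587 bases apart in the annotation. The upstream start, at 156197488, is that of the upstream promoter printed above, while the RefSeq start of the downstream window lies 358 bases before the GENCODE one. Of the TPM of the coding transcripts from these starts, the upstream one took 71.4%, 84.5% and 65.4% in Pax7WT and 77.8%, 64.2% and 86.6% in Pax7KR. Libraries of each genotype spanned nearly the same range.

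The genes around these 10 were read from the same fit. Of the other laminin chains and the laminin-binding netrin Ntn4, 0 of 5 were higher, 5 were lower, 0 passed the adjusted cut-off, and the median log2 fold change was -0.15, against -0.004 over all genes. Lama3 had a log2 fold change of -0.04 and Ntn4, at a mean of 96.8 TPM, one of -0.15 (edgeR adjusted p = 0.998 and 0.992).

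Among 21 basement membrane collagens and other components, 13 were higher and 8 lower, with 0 past the adjusted cut-off. An edgeR unadjusted p under 0.05 was seen in 2, beside 4.68% of all genes. The median log2 fold change was 0.07. The highest per length were Sparc (538 TPM), which binds collagen IV, and Col4a1 (187 TPM), a chain of the main collagen IV, with log2 fold changes of -0.01 and 0.07. Fbln2, an elastic fibre and basement membrane linker, had a log2 fold change of 0.33 and Hmcn1, hemicentin-1, one of -0.19 (edgeR unadjusted p = 0.0339 and 0.0231, adjusted p = 0.992 for both). Hmcn1 was at 73.5, 74.0 and 70.1 CPM in Pax7WT and 60.6, 69.8 and 60.2 CPM in Pax7KR, without overlap. It was the 1 of 21 that did not overlap on CPM, beside 10.3% of all genes. The calcium-binding Smoc2 (0.69) and the collagen Col18a1 (-0.12) had the next smallest p in each direction, with log2 fold changes as given (edgeR adjusted p = 0.992). Without Pax7KR replicate 2 these were 0.39 and -0.05.

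Of 13 receptors for laminin and agrin, 6 were higher and 7 lower in Pax7KR, with a median log2 fold change of -0.02. There were 0 calls at the adjusted cut-off and 2 at an edgeR unadjusted p under 0.05, beside 4.68% of all genes. Dag1, dystroglycan, was at a mean of 907 TPM and Sdc4, syndecan-4, at 439 TPM, with log2 fold changes of -0.04 and 0.10. Musk, the kinase through which agrin signals, had a log2 fold change of 0.19 and its partner Lrp4 one of -0.28 (edgeR unadjusted p = 0.0300 and 0.0986, adjusted p = 0.992). Bcam, a receptor for the α5 chain, had a log2 fold change of -0.18 and Itgb4, the β4 integrin, one of 0.43 (edgeR unadjusted p = 0.0499 and 0.0801, adjusted p = 0.992). All of these overlapped between the genotypes. Itgb4 was highest, at 13.4 CPM against 6.58 to 8.79 CPM elsewhere, in Pax7KR replicate 2, without which its log2 fold change was 0.12 and that of Lrp4 -0.14.

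The 14 genes that build the laminin-binding glycan of dystroglycan gave 6 higher and 8 lower, with 0 at an unadjusted p under 0.05 and a median log2 fold change of -0.02. Pomt1 (0.16), B3galnt2 (0.13) and Dpm3 (-0.13) were among those with the smallest p in their direction, with log2 fold changes as given (edgeR adjusted p of 0.992 to 0.998). Dpm3 (120 TPM) and Pomgnt1 (43.0 TPM) were the highest per length.

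Of 18 genes for crosslinking, processing and assembly, 9 were higher and 9 lower, with 0 past the adjusted cut-off. The median log2 fold change was 0.003. An edgeR unadjusted p under 0.05 was seen in 4, beside 4.68% of all genes. On CPM 4 did not overlap between genotypes, beside 10.3% of all genes. Those named here were picked by smallest p or highest level. P4ha2, a collagen prolyl hydroxylase subunit, was at 59.4, 62.5 and 56.1 CPM in Pax7WT and 78.9, 75.1 and 64.0 CPM in Pax7KR. All Pax7KR libraries were above all Pax7WT libraries (log2 fold change 0.29, SE 0.08, edgeR unadjusted p = 0.00383, adjusted p = 0.992). Tll1, a tolloid-like metalloprotease, showed the same order at 1.64 to 2.78 against 3.98 to 4.57 CPM (log2 fold change 0.92, edgeR unadjusted p = 0.00459, adjusted p = 0.992). Pxdn, the peroxidasin that crosslinks collagen IV, was lower without overlap, at 327 to 350 CPM in Pax7WT and 293 to 314 CPM in Pax7KR (log2 fold change -0.14, edgeR unadjusted p = 0.0355, adjusted p = 0.992). Ext1, a heparan sulfate polymerase, had a log2 fold change of -0.18 and overlapping groups. Mmp2 (273 TPM), a gelatinase, and Serpinh1 (184 TPM), the collagen chaperone, were the highest per length, with log2 fold changes of 0.07 and -0.04 (edgeR adjusted p = 0.998).

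The genes whose log2 level was most like that of Lamc1 over the 6 libraries were Cux1 (Pearson r = 0.988), Egln1 (0.985) and Klhl13 (0.983), out of 9520 genes searched, 84 of which had an r over 0.9. For Lama2 they were Prrc2b (0.990), Ddr1 (0.989) and Rbsn (0.987), with 99 genes over 0.9. These values describe 6 points that share libraries and depth and carry no test.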

How the data were processed

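RNA of 3 Pax7WT and 3 Pax7KR samples was grouped by the labels. The authors deposited, per transcript, estimated counts and TPM from Salmon (version 1.3.0) on GRCm38, with effective lengths. Their series table, whose fold changes and p-values were not used, also holds a mean signal per gene, the authors' mean normalized count. The Lamb1 mean there is 552.351, and the transcripts matched by identifier gave 309.482. Of 1201 unmatched transcripts, only ENSMUST00000239496 closed this gap to within 0.1%, and it was added to Lamb1.

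Estimated counts were matched to GENCODE vM21 names (139791 of 140992 transcripts), summed per gene and rounded. A gene entered edgeR where at least 2 libraries had at least 5 reads. The test was edgeR's (version 4.0.16) quasi-likelihood test with TMM, adjusted over 17152 genes (cut-off 0.1). The fit was run on simulated data with planted changes larger than any of the 10 genes showed. It therefore does not tell how often differences of the size seen here would be found. Libraries differed beyond counting noise (chi-square per gene 9.73 to 21.9 over all 15 pairs, within and between genotypes). Shares of summed TPM were compared by exact permutation. DESeq2 (version 1.42.0) and limma (version 3.58.1) were alternatives, under R 4.3.3, with Python 3.11.15 and scipy 1.17.1.

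The genes and lists were chosen with earlier results of these data known. Beside the 10 genes, the text names per list up to 2 genes in each direction with the smallest p, the 2 with the highest TPM, and the 3 most like Lamc1 and Lama2 among genes with a mean CPM of 10 or more. Of the genes this rule picks, 2 are not reported here.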

Additional observations from a re-analysis of the deposited data

How the results depend on the processing

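Over 16 alternatives, Lama2, Lamb2, Lamc1, Nid1, Nid2 and Agrn kept the direction of their log2 fold change, and 1 of 160 values of the 10 genes passed the cut-off (Nid1 with no filter on low reads, adjusted p = 0.0682, edgeR). The count of genes called, 0 in edgeR (803 at an unadjusted p under 0.05), was 30 with DESeq2, 45 with DESeq2 and a length offset, 158 with no filter (1 of the 10 genes) and 1 to 32 with each library left out (32 without Pax7KR replicate 3). The replicate block gave 13. Same-numbered libraries did not deviate together (r = 0.002, 0.046 and -0.055), so the numbers were not taken as pairs, and the block called 0 of the 10 genes. Lama5 reversed with limma-voom (-0.002) and the replicate block (-0.001), and Lamb1 with transcripts matched by identifier alone (0.41).

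With each library left out, the log2 fold change ran from -0.02 to 0.32 for Lama4, -0.08 to 0.15 for Lama5 and -0.07 to 0.14 for Hspg2. Differences in share, in percentage points, ran from -0.0981 to 1.93 for Lama5 among α chains, -1.30 to 2.23 for Nid2, -1.44 to 1.56 for Lama2-201, -6.50 to 2.01 for Lama5-201, -12.3 to 37.2 for Lamb1-201, -0.704 to 1.05 for Lamb2-201, -0.577 to 1.75 for Hspg2-201 and -4.16 to 2.28 for Agrn-206. The share of Lamb2 reversed by identifier alone (-1.35), that of Nid2 on CPM (-1.62) and that of Agrn-206 on reads (0.98). The lower end for Lamb1-201 came without Pax7WT replicate 3, where its share was 0% and ENSMUST00000239496 held the reads. On TPM no share separated the genotypes. On reads, the top transcript of each of the 10 genes was looked at, and only the share of Lamc1-201 separated them (0.856 points). Of all genes, 10.3% were apart on CPM. The causes of the other reversals were not tested.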
